A study of Mus musculus with 12 samples.

Results

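The clustered histone genes are the genes whose symbols start with Hist1h, Hist2h, Hist3h or Hist4h. A search of the 28116 gene symbols of the expression table for that pattern found 56 of them. They code for the linker histone H1 (5 genes) and the core histones H2A (13), H2B (15), H3 (10) and H4 (13). By the GENCODE M21 annotation of GRCm38, 47 lie on chromosome 13, 5 on chromosome 3, 3 on chromosome 11 and 1 on chromosome 6; 54 are protein coding and 2 are pseudogenes. The whole family was taken by symbol, but it was chosen by a measured value, the change in the effect of the inhibitor between days for Hist1h1c. That change, and the differences of Hist1h1c on each day that make it up, are therefore given as a description with no test.

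The tissue was tibialis anterior muscle of mdx mice (strain C57BL/10ScSn-Dmdmdx/J), which lack full-length dystrophin and model Duchenne muscular dystrophy, at 4 months of age. Every muscle had been injected with cardiotoxin, a venom toxin that destroys muscle fibres and starts their regeneration. The toxin was mixed either with anti-miR106b, which blocks the microRNA miR-106b, or with the control anti-miR-Scrambled, and muscles were taken 3 or 7 days afterwards. The 12 libraries thus fall into 4 groups of 3 animals, namely anti-miR106b day 7, scrambled day 7, anti-miR106b day 3 and scrambled day 3. All 4 groups share the mdx mutation and the toxin, and uninjured or wild-type muscle was not analysed here. Reads counted to the genes of the table came to between 28857739 and 42825246 per library. A level of 1 CPM, the unit of reads scaled to the size of the library, rested on 28.1 to 46.9 reads. The libraries carried the markers of the labelled tissue: the 6 mature fast fibre markers, such as Myh4 and Ckm, summed to between 37523 and 130424 CPM. The scrambled day 3 library 3 stood apart in RNAs without a poly(A) tail, with 37.5 CPM over 365 small RNA genes, against 17.2 to 28.8 CPM in the other 11 libraries.

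Histones package DNA: the core histones H2A, H2B, H3 and H4 form the nucleosome, and the linker histone H1 binds where DNA enters and leaves it. Most clustered histone genes are replication-dependent. They have no introns, are transcribed mainly in S phase, and give mRNAs that end just after a conserved stem-loop, bound by the protein SLBP, in place of a poly(A) tail. Some of them also give longer, polyadenylated transcripts, which have been reported in cells that no longer divide, as in differentiated muscle. Libraries of the kit named in the labels are commonly made from polyadenylated RNA; the labels do not give the selection, so levels below describe the transcripts these libraries captured.

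The stem-loop, a stem of 6 bases on each side of a loop of 4, separates the usual end of a histone mRNA from any longer transcript. It was looked for in annotated 3′ UTRs, but only in the bases soon after the stop codon. Only forms with a stem starting in GG and a loop starting in TT were counted. The stem-loop was found in 37 of the 56 genes, in 6 versions, and 14 genes had no 3′ UTR long enough to judge. The version most often found stood in 20 genes, among them Hist1h1c, Hist1h1d, Hist1h1e, Hist1h2be, Hist1h2bh, Hist1h3d, Hist2h3c2 and Hist3h2a. The H4 genes below had other stems. Hist1h2bc and Hist2h2be, which had high levels, had no match in the bases searched. The only annotated transcript of Hist1h2bc is spliced, so the end of an unspliced transcript was not searched. Capitals mark the stem and lower case the loop, 5′ to 3′ on the gene's strand:
Hist1h1c: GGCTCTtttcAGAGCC
Hist1h4h: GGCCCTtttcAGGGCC
Hist1h4i: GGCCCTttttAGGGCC
The stem of Hist1h1c is thus shared with core histone genes of the H2A, H2B and H3 classes.

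Promoters, taken as the 250 bases before and 50 after the start of the gene in RefSeq (GRCm38.p6), were at hand for 49 of the 56 genes. They were searched on both strands for CCAAT, for TATAAA and for AAACACA, the letters known as the H1 box of linker histone promoters. CCAAT was in 81.6% of the 49 histone promoters and in 37.9% of all 27025 promoters in the table, TATAAA in 65.3% and 14.2%, and AAACACA in 12.2% and 7.14%. AAACACA was not confined to linker genes: the H2B gene Hist1h2bm and the H2A gene Hist1h2ab held it, with CCAAT. Among linker genes with low levels, Hist1h1b held both, and Hist1h1a held CCAAT without AAACACA. The 3 linker genes with the highest levels are printed because all 3 hold both CCAAT and AAACACA. They lie on chromosome 13, at chr13:23738557-23738856 on the plus strand for Hist1h1c, chr13:23554782-23555081 on the plus strand for Hist1h1d and chr13:23622509-23622808 on the minus strand for Hist1h1e. Capitals mark any match to the 3 motifs, on either strand:
Hist1h1c: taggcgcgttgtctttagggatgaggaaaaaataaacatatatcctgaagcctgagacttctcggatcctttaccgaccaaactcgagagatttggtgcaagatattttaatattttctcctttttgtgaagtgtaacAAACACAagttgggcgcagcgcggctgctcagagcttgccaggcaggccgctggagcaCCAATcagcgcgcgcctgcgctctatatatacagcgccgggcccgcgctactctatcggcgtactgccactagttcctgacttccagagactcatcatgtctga
Hist1h1d: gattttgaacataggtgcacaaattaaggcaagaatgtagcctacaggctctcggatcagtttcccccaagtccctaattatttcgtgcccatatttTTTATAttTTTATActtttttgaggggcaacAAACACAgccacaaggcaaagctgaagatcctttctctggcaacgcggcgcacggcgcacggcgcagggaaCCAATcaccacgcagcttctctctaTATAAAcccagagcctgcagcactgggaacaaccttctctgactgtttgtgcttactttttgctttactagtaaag
Hist1h1e: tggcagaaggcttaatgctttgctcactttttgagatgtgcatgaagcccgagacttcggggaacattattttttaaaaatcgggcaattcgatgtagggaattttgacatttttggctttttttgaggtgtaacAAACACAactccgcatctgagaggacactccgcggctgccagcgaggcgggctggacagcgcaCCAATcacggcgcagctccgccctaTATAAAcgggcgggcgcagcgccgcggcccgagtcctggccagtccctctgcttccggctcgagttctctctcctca
A match is a string of letters in this window and not a shown binding site.

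Few of the 56 genes had more than a handful of reads. A level of 1 log2 CPM, which is 2 CPM, was reached by 11 genes in any library, by the same number in at least 3 libraries, by 8 genes in all 12 libraries, and by 9 genes as the mean of the 12. By class, the 11 comprise 3 H1, 1 H2A, 3 H2B, 2 H3 and 2 H4 genes. The tests took genes with 1 CPM or more in 3 or more libraries, which held for 12 of the 56, against 14063 of the 28116 symbols. The other 44 stayed below 1 CPM in every library, and 34 had no read in at least 1 library. Just inside the level of 1 log2 CPM was Hist1h3d, whose highest library had 1.22 log2 CPM, and just outside it was Hist1h2bh with 0.41. Hist1h2bh and Hist1h3d passed the filter for testing only through day 7 libraries (3 and 6 at 1 CPM, against 0 and 1 on day 3), so their difference between days was partly fixed by the filter.

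The reads were concentrated in a few genes. The 12 tested genes held 97.1% to 99.2% of all histone reads of a library. Hist1h1c, a linker histone, alone held 58.2% to 67.3% of them and 96.5% to 98.5% of the H1 reads. In order of mean level, the genes were Hist1h1c (7.42 log2 CPM), Hist1h2bc (5.55), Hist1h4i (4.21), Hist2h2be (2.87), Hist3h2a (2.78), Hist1h2be (2.75), Hist1h4h (2.54), Hist2h3c2 (1.52), Hist1h1e (1.36), Hist1h1d (0.75), Hist1h3d (0.32) and Hist1h2bh (-0.57). Since a longer transcript gives more reads, levels were also set per kilobase of annotated exon. On that scale Hist1h1c had a mean of 117 CPM per kilobase, Hist1h2bc 41.6, Hist1h4i 28.3, Hist1h4h 14.6, Hist3h2a 3.20, Hist2h2be 2.87 and Hist2h3c2 2.86, and the other 49 genes were below these. Hist2h2be and Hist2h3c2 thus had nearly the same mean per length.

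The tested and untested genes also differed in annotation, which was not used in choosing the family. The filter was set on CPM not divided by length, so genes with longer annotated exons passed it more easily. Hist1h1d, for example, passed with a mean of 0.264 CPM per kilobase, and Hist1h3i, with 0.772, did not. A difference in 3′ UTR length between tested and untested genes was thus partly built in by the filter. The longest annotated 3′ UTR had a median of 1044.5 bases among the 12 tested genes, from 93 for Hist1h4h to 4931 for Hist1h1d. Among the 44 untested genes the median was 77.5 bases, and 12 of them had no annotated 3′ UTR. Where a stem-loop was found, the longest transcript ran on for a median of 996.5 bases after it in 10 tested genes and of 51 bases in 27 untested genes. The polyadenylation signal AATAAA was in the 3′ UTR of 7 of the 12 tested and 8 of the 44 untested genes. A long 3′ UTR did not always go with a high level: Hist4h4, an H4 gene with 2515 bases of 3′ UTR and a reported polyadenylated transcript, had 0 to 5 reads per library.

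**Figure D1:**
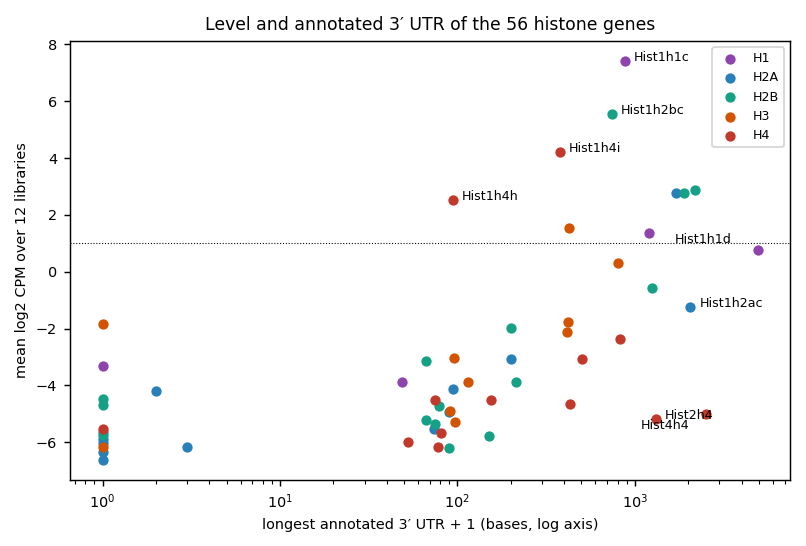
Mean log2 CPM over the 12 libraries (vertical axis) against the longest annotated 3′ UTR plus 1 base (horizontal log axis) for each of the 56 histone genes, coloured by histone class; the dotted line is 1 log2 CPM. The 9 genes above the line have 3′ UTRs of 93 bases or more, and genes with no annotated 3′ UTR lie at the left edge, all below the line. Levels are not divided by transcript length, so longer transcripts give higher values.

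Sequence sharing limits what can be said of single genes. For the longest annotated transcript of each gene, the share of 50-base stretches found in no other gene was taken. Its median was 73.1% in tested genes and 44.0% in untested genes. The share was under 50% for 1 tested gene, Hist2h3c2 (36.5%), and 24 untested genes. How the authors' counting treated reads shared between copies is not given in the sources used here, so the levels of such genes, and most of all of Hist2h3c2, are uncertain. Exons of Hist1h1e overlap those of Hist1h2be on the same strand, and exons of Hist3h2a overlap Trim17 on the same strand and Gm44313 on the other. Reads there cannot be assigned with certainty.

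On day 3 most tested histone genes were lower with the inhibitor, and on day 7 no difference passed the test. On day 3, limma with Benjamini-Hochberg adjustment over all 14063 tested genes called 7 of the 11 tested histone genes lower at an adjusted p below 0.05 and none higher, with no member higher at an unadjusted p below 0.05 either. Of all genes, 19.4% were called lower and 16.3% higher in that comparison. Hist1h1c is not counted there, since its day 3 difference is part of what chose the family. The other 11 varied with Hist1h1c over the same libraries, with r from 0.516 in Hist3h2a to 0.958 in Hist1h4h. Their count on day 3 is therefore not fully separate from that choice. On day 7, no member was called in either direction by limma, with or without voom weights, against 0.00711% of all genes called higher and 0.0569% lower. None of the 11 reached an unadjusted p below 0.05 on day 7, which 11.2% of all genes did. Between days, over both arms, all 12 tested genes were higher on day 7 and none lower, against 39.9% of all genes called higher and 42.1% lower. Leaving aside Hist1h2bh and Hist1h3d, which the filter kept only through day 7 libraries, 10 of 10 were higher. With libraries scaled to their total reads in place of the authors' factors, these counts were 5 lower and 1 higher on day 3, against 9.88% and 36.7% of all genes, and 7 higher and 1 lower between days, against 16% and 69.1%. That scaling moved the median of all genes by 0.20 on day 3 and by -0.53 between days on the log2 scale. In whole muscle, a lower level cannot be told apart between fewer cells that make a transcript and less of it in each cell.

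**Figure D2:**
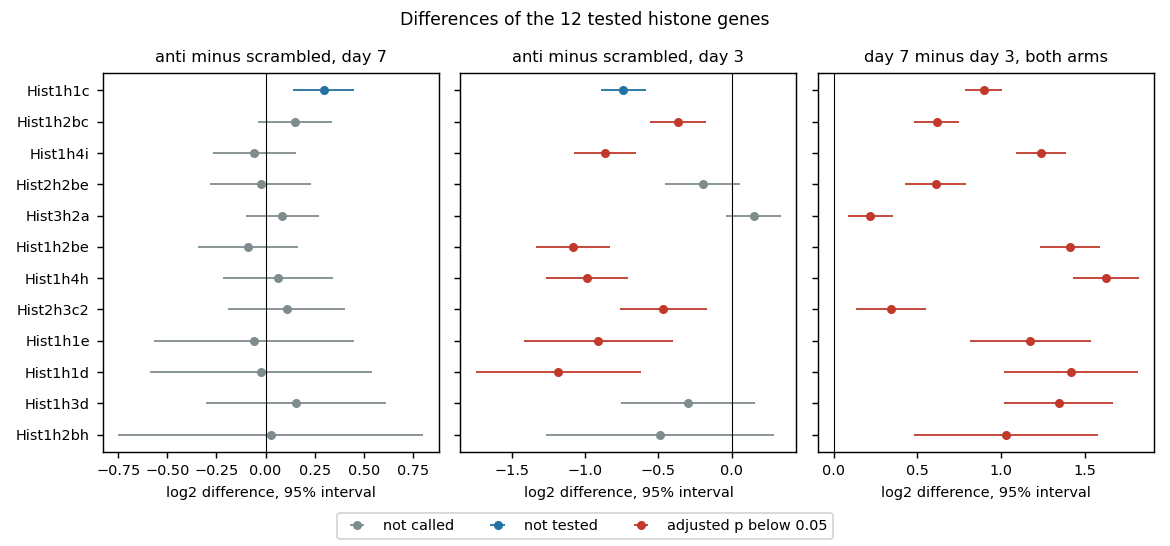
Log2 difference of each tested histone gene with its 95% interval: anti-miR106b minus scrambled on day 7, the same on day 3, and day 7 minus day 3 over both arms, genes in order of mean level. Red points passed an adjusted p below 0.05 in limma, grey points did not, and blue points (Hist1h1c) were not tested; the red points lie left of 0 on day 3 and right of 0 between days.

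Among linker histones, Hist1h1c carried the change between days for which the family was taken. It is a gene of 1 exon on chromosome 13, from 23738808 to 23740367 on the plus strand of GRCm38, and 91.5% of its 50-base stretches occur in no other gene. It had 8.14, 7.91 and 8.01 log2 CPM with anti-miR106b on day 7, against 7.71, 7.67 and 7.79 in scrambled muscle. On day 3 it had 6.64, 6.63 and 6.54 log2 CPM with anti-miR106b, against 7.25, 7.44 and 7.35 in scrambled muscle. All 3 inhibitor libraries were thus above the scrambled ones on day 7 and below them on day 3, with no overlap on either day. The log2 difference was 0.30 (SE 0.07) on day 7 and -0.74 (SE 0.07) on day 3, a linear ratio of 1.23 and of 0.598. The effect on day 7 minus that on day 3 was 1.04 (SE 0.10), which among the 14063 tested genes ranked 4 by p and 436 by size. These values are a description, since they chose the gene. The size of the difference between days over both arms does not depend on that change and was tested. Both use the same estimate of the spread of the gene, so the p-value is not fully separate from the choice. Hist1h1c was 1.86-fold higher on day 7 (log2 difference 0.90, SE 0.05, adjusted p 1.04e-09 in limma), with all 6 day 7 libraries above all 6 of day 3.

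The other linker genes had far lower levels and wider spread. Hist1h1d had 1.71, 1.05 and 1.59 log2 CPM with anti-miR106b and 1.67, 1.51 and 1.24 in scrambled muscle on day 7. On day 3 it had -1.07, -0.55 and -0.03 with anti-miR106b and 0.48, 0.48 and 0.94 in scrambled muscle, with no overlap. It fell by 1.18 on the log2 scale with the inhibitor on day 3 (SE 0.26, adjusted p 0.0037 in limma), the largest fall of the 11 tested genes, and its day 7 difference was -0.02. Hist1h1e had 2.07, 2.00 and 1.69 log2 CPM with anti-miR106b and 1.83, 1.79 and 2.31 in scrambled muscle on day 7. On day 3 it had -0.02, 0.29 and 0.69 with anti-miR106b and 0.81, 1.19 and 1.69 in scrambled muscle. It fell by 0.91 on day 3 (SE 0.24, adjusted p 0.00915 in limma), and without scrambled day 3 library 3 the adjusted p was 0.0512. Between days, Hist1h1d and Hist1h1e were 2.67-fold and 2.26-fold higher on day 7, with adjusted p of 6.38e-06 and 1.47e-05 in limma. Hist1h1a and Hist1h1b, the other H1 genes, were below 1 CPM in every library.

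Of the H2B genes, Hist1h2bc had the highest level and a small difference. It had 5.84, 5.85 and 6.10 log2 CPM with anti-miR106b and 5.62, 5.85 and 5.86 in scrambled muscle on day 7. On day 3 it had 5.17, 5.04 and 4.95 with anti-miR106b and 5.42, 5.46 and 5.38 in scrambled muscle, with no overlap. It fell by 0.37 with the inhibitor on day 3 (SE 0.09, adjusted p 0.00608 in limma; 0.112 with scaling to total reads). Hist1h2be, whose exons partly overlap Hist1h1e, had 3.27, 3.46 and 3.50 log2 CPM with anti-miR106b and 3.40, 3.55 and 3.56 in scrambled muscle on day 7. Its day 3 levels were 1.76, 1.43 and 1.33 with anti-miR106b and 2.48, 2.64 and 2.64 in scrambled muscle. It fell by 1.08 on day 3 (SE 0.12, adjusted p 4.44e-05 in limma), the smallest adjusted p of the 11 tested genes, while its day 7 difference was -0.09. Between days, Hist1h2bc was 1.53-fold and Hist1h2be 2.66-fold higher on day 7 (adjusted p 4.45e-07 and 1.49e-09 in limma), the first of these calls being lost with scaling to total reads (adjusted p 0.147).

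The remaining H2B genes were not called on day 3. Hist2h2be, which had no stem-loop match in the bases searched, had 3.20, 3.17 and 3.13 log2 CPM with anti-miR106b and 3.25, 3.38 and 2.94 in scrambled muscle on day 7. In the day 3 libraries it had 2.42, 2.57 and 2.41 with anti-miR106b and 2.48, 2.81 and 2.70 in scrambled muscle, and the groups overlapped. Its day 3 difference was -0.20 (SE 0.12, adjusted p 0.211 in limma). Hist1h2bh had 0.41, -0.28 and -0.25 log2 CPM with anti-miR106b and -0.34, 0.03 and 0.12 in scrambled muscle on day 7. In day 3 muscle it had -1.36, -1.64 and -0.98 with anti-miR106b and -1.64, -0.63 and -0.23 in scrambled muscle, and rested on 12 to 41 reads per library. Its day 3 difference of -0.49 had an interval of -1.27 to 0.29 (adjusted p 0.309 in limma). Between days, Hist2h2be was 1.53-fold and Hist1h2bh, subject to the same filter limit as above, 2.04-fold higher on day 7 (adjusted p 1.12e-05 and 0.00195 in limma), and both calls were lost with scaling to total reads (adjusted p 0.264 and 0.0781).

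The H4 genes with reads had among the widest differences. Hist1h4i had 4.69, 4.80 and 4.91 log2 CPM with anti-miR106b and 4.90, 5.00 and 4.67 in scrambled muscle on day 7. At day 3 its levels were 3.23, 3.09 and 3.16 with anti-miR106b and 3.92, 4.18 and 3.97 in scrambled muscle, far apart. It fell by 0.86 with the inhibitor on day 3 (SE 0.10, adjusted p 5.78e-05 in limma). Hist1h4h, with the shortest 3′ UTR of the tested genes, had 3.16, 3.43 and 3.55 log2 CPM with anti-miR106b and 3.40, 3.39 and 3.16 in scrambled muscle on day 7. The day 3 values were 1.41, 1.21 and 1.06 with anti-miR106b and 2.07, 2.35 and 2.23 in scrambled muscle. It fell by 0.99 on day 3 (SE 0.13, adjusted p 1.54e-04 in limma). Between days it was 3.09-fold higher on day 7, the largest of the 12 tested genes (log2 difference 1.63, SE 0.09, adjusted p 9.44e-10 in limma), and Hist1h4i was 2.36-fold higher (adjusted p 8.99e-10).

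Of the H3 genes, Hist2h3c2 had 1.95, 1.55 and 1.75 log2 CPM with anti-miR106b and 1.52, 1.80 and 1.60 in scrambled muscle on day 7. Its day 3 levels were 1.23, 1.10 and 1.02 with anti-miR106b and 1.69, 1.55 and 1.53 in scrambled muscle. Its day 3 groups did not overlap and it fell by 0.47 (SE 0.14, adjusted p 0.0182 in limma). That call was lost without anti-miR106b day 3 library 2 or 3 (adjusted p 0.0554 and 0.0628), without scrambled day 3 library 1 (0.0635) and with scaling to total reads (0.125). Hist1h3d had 1.22, 1.03 and 0.95 log2 CPM with anti-miR106b and 0.68, 0.94 and 1.12 in scrambled muscle on day 7. In the day 3 libraries it had -0.68, -0.51 and -0.33 with anti-miR106b and -0.39, -0.40 and 0.18 in scrambled muscle. It was 2.54-fold higher on day 7 than on day 3 (adjusted p 1.27e-06 in limma), a difference partly fixed by the filter, which it passed only through day 7 libraries. Its day 3 difference was -0.30 (SE 0.21, adjusted p 0.287 in limma); with library weights it was -0.61 and was called (adjusted p 0.00361). Hist2h3c2 was 1.27-fold higher on day 7 than on day 3 (adjusted p 0.00517 in limma), a difference that turned to -0.17 on the log2 scale with scaling to total reads.

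The H2A gene Hist3h2a stood apart from the others on day 3. It had 2.88, 2.92 and 2.99 log2 CPM with anti-miR106b and 2.83, 2.85 and 2.85 in scrambled muscle on day 7, and 2.86, 2.66 and 2.71 with anti-miR106b and 2.58, 2.53 and 2.66 in scrambled muscle on day 3. It was the only tested histone gene whose day 3 difference was above 0 (0.15, SE 0.09, adjusted p 0.190 in limma); with scaling to total reads it was 0.34 and was called (adjusted p 0.00873). Between days it was 1.16-fold higher on day 7 (adjusted p 0.00448 in limma), the smallest change of the 12, and this turned to -0.30 and was called lower (adjusted p 7.03e-04) with scaling to total reads. Part of its reads is uncertain because of the exons shared with Trim17.

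**Figure D3:**
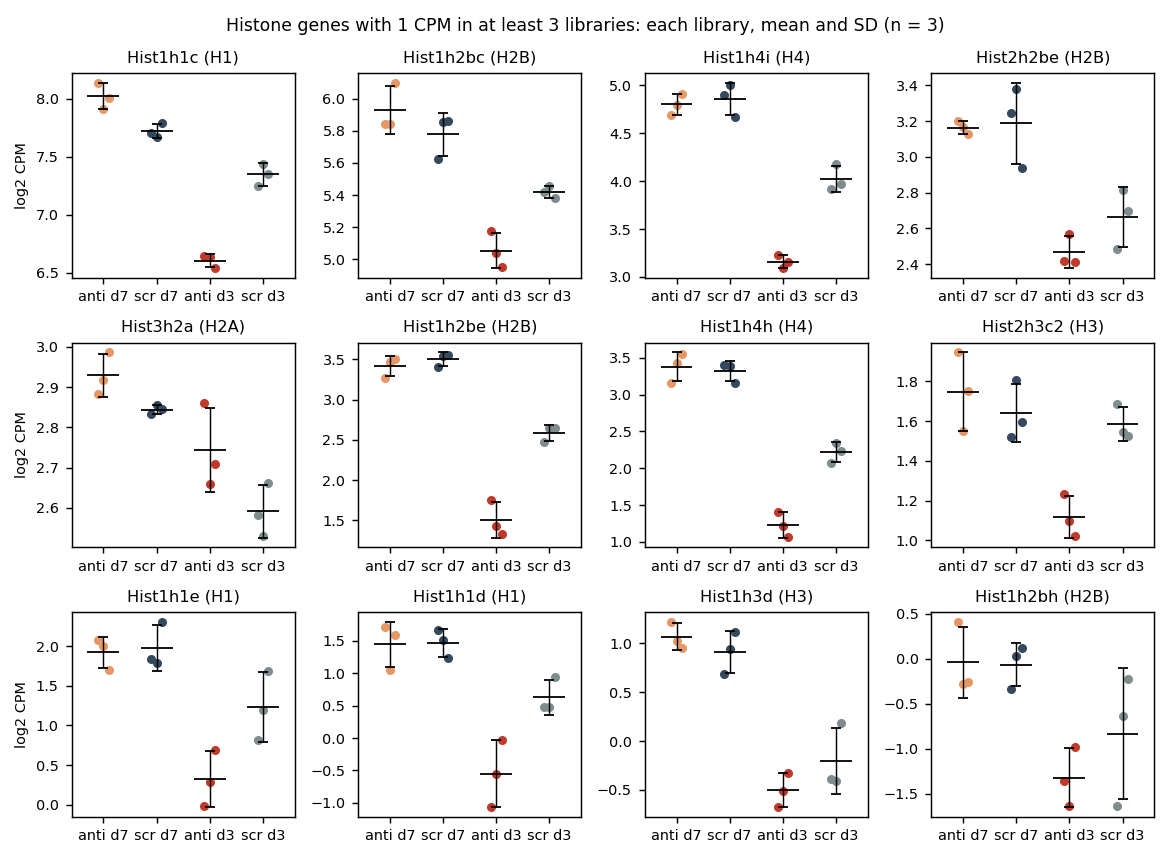
Log2 CPM of each tested histone gene in every library (points), with the mean (line) and SD (bar) of the 3 animals per group; d7 and d3 are days, anti is anti-miR106b and scr is scrambled, and each panel has its own vertical range. In Hist1h1c the inhibitor points lie above the scrambled ones on day 7 and below them on day 3, while in Hist1h2be, Hist1h4i and Hist1h4h the groups lie apart on day 3 and overlap on day 7.

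The change of the inhibitor effect between days is given for the other members as a description, because it chose the family. It was above 0 in 11 of the 12 tested genes, with a median of 0.69 against a median of -0.0027 over all 14063 tested genes. The highest value was 1.16 (SE 0.37) in Hist1h1d, followed by 1.05 (SE 0.18) in Hist1h4h and 1.04 (SE 0.10) in Hist1h1c, and Hist3h2a had -0.07 (SE 0.12). The day 7 difference was 0.30 in Hist1h1c, -0.02 in Hist1h1d and 0.06 in Hist1h4h, and each day 7 interval of the other 11 members included 0. Whether members differ from each other was not tested.

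The genes below the filter had few reads, and whether they differ from the tested genes was not tested. The 3 with the highest mean levels were Hist1h2ac, an H2A gene, and the H3 genes Hist1h3e and Hist1h3i. Hist1h2ac had -0.69, -1.09 and -1.42 log2 CPM with anti-miR106b and -1.44, -1.13 and -1.05 in scrambled muscle on day 7, and -1.14, -1.54 and -1.89 with anti-miR106b and -1.42, -1.15 and -1.13 in scrambled muscle on day 3. Its groups overlapped on both days. Hist1h3e had -1.23, -1.46 and -2.06 with anti-miR106b and -1.56, -1.13 and -1.37 in scrambled muscle on day 7, and -2.18, -2.11 and -1.14 with anti-miR106b and -2.61, -2.78 and -1.53 in scrambled muscle on day 3. Hist1h3i had -0.93, -1.20 and -1.42 with anti-miR106b and -1.56, -0.96 and -0.79 in scrambled muscle on day 7, and -3.14, -2.82 and -2.85 with anti-miR106b and -2.40, -2.31 and -1.53 in scrambled muscle on day 3. In Hist1h3i the inhibitor libraries of day 7 all lay above those of day 3, on 5 to 18 reads per library. On day 3 the inhibitor libraries of Hist1h3i all lay below the scrambled ones.

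Summed over the 44 untested genes, the level was 3.63 ± 0.144 CPM with anti-miR106b and 3.88 ± 1.00 CPM in scrambled muscle on day 7, and 3.63 ± 0.918 CPM with anti-miR106b and 4.32 ± 2.24 CPM in scrambled muscle on day 3 (SD, n = 3 each). These are 92 to 244 reads per library, and the groups overlapped. Scrambled day 3 library 3, the library with the most small RNA reads, had 6.88 CPM, and the scrambled day 3 mean without it was 3.03 ± 0.416 CPM (n = 2). The 11 tested genes other than Hist1h1c, whose differences chose the family, summed to 140 ± 9.50 CPM with anti-miR106b and 135 ± 7.02 CPM in scrambled muscle on day 7, where the groups overlapped. On day 3 they summed to 64.9 ± 3.50 CPM with anti-miR106b and 90.6 ± 3.76 CPM in scrambled muscle, where they did not (SD, n = 3 each). By class, the H4 sum was 39.1 ± 3.51 CPM with anti-miR106b and 39.6 ± 4.12 CPM in scrambled muscle on day 7, and 11.9 ± 0.631 CPM with anti-miR106b and 21.9 ± 2.13 CPM in scrambled muscle on day 3. The H2A sum was 8.39 ± 0.323 and 8.06 ± 0.293 CPM in the same day 7 groups, and 7.60 ± 0.404 and 7.09 ± 0.471 CPM in those of day 3. On day 3 the H2B sum was 42.9 ± 2.70 CPM with anti-miR106b and 56.6 ± 1.70 CPM in scrambled muscle, and the H3 sum was 3.90 ± 0.113 and 5.00 ± 0.524 CPM. With the authors' scaling, the H2B, H3 and H4 sums thus separated the arms on day 3, as did the H1 sum, nearly all of it Hist1h1c. The H2A sum, most of it Hist3h2a, overlapped between the arms and moved little. Scaled to total reads, the day 3 H3 sums overlapped, at 4.77 to 5.13 CPM with anti-miR106b and 4.98 to 6.27 CPM in scrambled muscle. The H2A sum was then higher with anti-miR106b on day 3, at 9.10 to 10.07 CPM against 7.55 to 8.54 CPM in scrambled muscle. On day 7 it was 6.33 to 7.38 CPM over both arms. The H1, H2B and H4 sums still separated the arms on day 3.

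**Figure D4:**
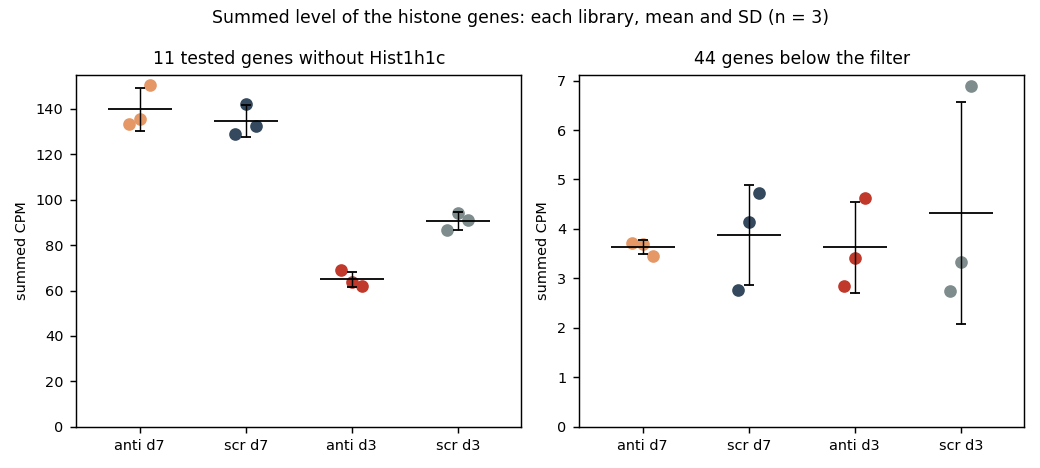
Summed CPM of the 11 tested histone genes other than Hist1h1c (left) and of the 44 genes below the filter (right) in each library (points), with the mean (line) and SD (bar) of 3 animals per group; both axes start at 0. The 11 genes overlap between arms on day 7 (means 140 and 135 CPM) and lie apart on day 3 (64.9 CPM with anti-miR106b, 90.6 CPM scrambled), while the untested genes overlap between all groups at 2.74 to 6.88 CPM.

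When the filter was dropped and all 28116 symbols were tested, low members moved in both directions. Between days, limma then called 14 of the 56 genes higher and 7 lower on day 7, against 22.3% and 27.8% of all symbols. The 2 extra genes called higher were Hist1h3i and Hist1h3f, both H3 genes. Those called lower were the H3 genes Hist1h3c, Hist1h3b and Hist1h3a, the H2A genes Hist1h2ai, Hist1h2ab and Hist1h2ae, and the H4 gene Hist1h4k, with at most 14 reads in any library. Hist1h3c, for example, was called with an adjusted p of 2.07e-04 in limma on 0 to 13 reads per library. On day 3, 7 of the 55 genes other than Hist1h1c were called lower, all from the 11 tested above, and 2 higher, against 8.88% and 7.07% of all symbols. The 2 called higher were Hist1h2bm and Hist1h2bk, H2B genes with at most 3 and 6 reads in a library. Values of such genes depend on the small number of reads added before the logarithm.

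Genes that act with histones were examined from lists written from general knowledge. Of 33 tested S phase genes, among them the helicase subunit Mcm7, the ligase Lig1 and the polymerase subunit Pold1, 13 were called higher and none lower with the inhibitor on day 3, with a median of 0.42 against 0.01 over all genes; of all genes, 16.3% were called higher. With scaling to total reads 24 of the 33 were higher, against 36.7% of all genes. Lig1 averaged 4.35 ± 0.08 log2 CPM with anti-miR106b and 3.66 ± 0.05 in scrambled muscle on day 3 (SD, n = 3 each), a difference of 0.68 (adjusted p 0.00285 in limma). Between days, 29 of the 33 were lower on day 7 and none higher, with a median of -1.30, against 42.1% and 39.9% of all genes. Of 20 mitosis genes such as Aurka, Ube2c and Birc5, 3 were higher and none lower on day 3 (median 0.48), a share near that of all genes. With scaling to total reads 6 were higher, a share near the 36.7% of all genes. All 20 were lower on day 7 than on day 3 (median -2.77). The 11 tested clustered histone genes other than Hist1h1c had a median of -0.49 on day 3, and all 12 had a median of 1.10 between days. No gene of either list was called on day 7. With quantile normalization, 3 S phase genes were higher and 29 lower between days, against 49% and 34.3% of all genes.

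Of 12 tested genes of histone mRNA processing, 2 were higher on day 3, a share near that of all genes. With scaling to total reads 7 were higher, against 36.7% of all genes. The 2 called with the authors' scaling were Lsm10, a part of the U7 particle that cuts histone mRNA (0.52, SE 0.12, adjusted p 0.00385 in limma), and the endonuclease Cpsf3 (0.22, SE 0.07, adjusted p 0.0294). Slbp, the stem-loop binding protein, averaged 3.69 ± 0.06 log2 CPM with anti-miR106b and 3.72 ± 0.06 in scrambled muscle on day 3 (SD, n = 3 each). Npat, the activator of histone gene transcription, had 2.79 ± 0.10 and 3.07 ± 0.04 in the same groups (adjusted p 0.105 in limma). The median of the 12 was 0.08 on day 3 and -0.29 between days. Between days 8 of them were lower on day 7 and none higher, Slbp falling by 0.44 (SE 0.07), against 42.1% and 39.9% of all genes. With quantile normalization 4 were higher and 5 lower, against 49% and 34.3% of all genes. With scaling to total reads all 12 were lower, against 69.1% of all genes.

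The 11 histones listed as replication-independent have symbols outside the pattern that defined the family. Of these, 5 were higher and 1 lower on day 3 (median 0.28). Of all genes, 16.3% were called higher and 19.4% lower. H2afx, an H2A variant marked at DNA breaks, averaged 4.12 ± 0.09 log2 CPM with anti-miR106b and 3.59 ± 0.03 in scrambled muscle on day 3 (difference 0.54, adjusted p 9.46e-04 in limma). The centromere histone Cenpa and H2afz were higher too, by 0.53 and 0.28. H1f0, the linker histone of cells that have stopped dividing, was the gene that fell, with 6.87 ± 0.03 log2 CPM with anti-miR106b and 7.15 ± 0.06 in scrambled muscle (difference -0.28, SE 0.06, adjusted p 0.00525 in limma); with scaling to total reads it was no longer called. Between days, 3 of the 11 were higher and 7 lower on day 7 (median -0.65), H1f0 at 0.46 and Cenpa at -1.86. The shares of all genes were 39.9% and 42.1%. With scaling to total reads none of the 11 was higher and 9 were lower, against 16% and 69.1% of all genes. With the authors' scaling, the direction of H1f0 was that of Hist1h1c on day 3 and between days. With scaling to total reads H1f0 was not called higher between days. Of 18 histone chaperones, 4 were higher, such as Daxx (0.49) and Ssrp1 (0.34), and 2 lower, such as Nap1l4 (-0.32), on day 3 (median 0.20). These counts stand against 16.3% and 19.4% of all genes. With scaling to total reads 10 were higher and none lower, against 36.7% and 9.88% of all genes. Between days 6 chaperones were higher and 11 lower (median -0.50), against 39.9% and 42.1% of all genes. With scaling to total reads 1 chaperone was higher and 16 were lower, against 16% and 69.1% of all genes. Of the 5 clustered genes reported to give polyadenylated transcripts, all but Hist4h4 were tested: these were Hist1h1c, Hist1h2bc, Hist2h2be and Hist3h2a, all higher on day 7 than on day 3; with scaling to total reads 1 was higher and 1 lower. None of the genes of these lists was called on day 7, where Hist1h1c was not tested.

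**Figure D5:**
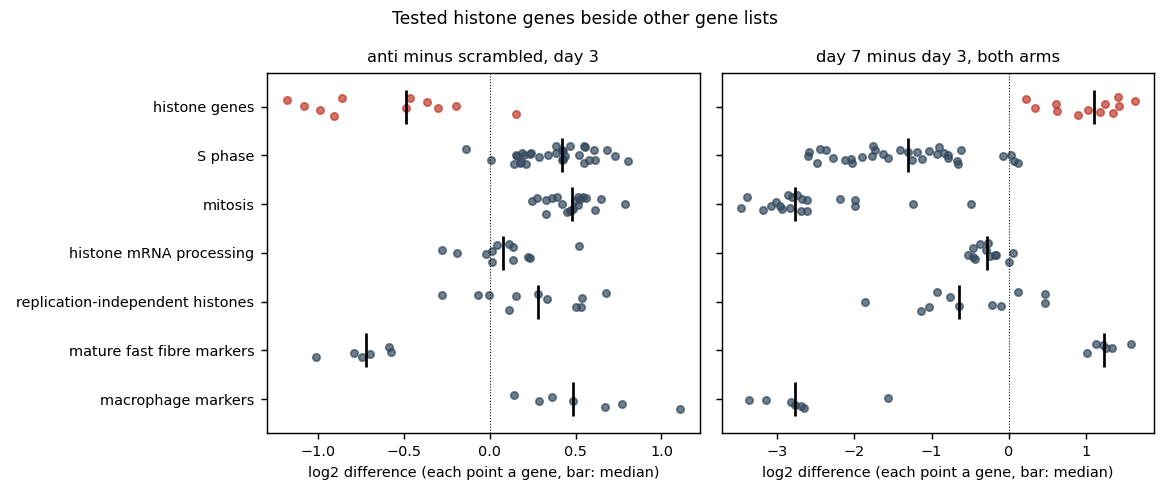
Log2 difference of each tested gene (points) and the median (bar) for the clustered histone genes and 6 other lists: anti-miR106b minus scrambled on day 3 (left, without Hist1h1c) and day 7 minus day 3 over both arms (right). The histone genes lie mostly below 0 on day 3 and all above 0 between days, as do the fast fibre markers, and the S phase, mitosis and macrophage genes lie mostly on the other side.

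Cell type markers moved with the same comparisons, and their part in the histone differences was not tested. Of all genes, 16.3% were called higher and 19.4% lower on day 3, and 39.9% and 42.1% between days. With scaling to total reads the day 3 shares were 36.7% and 9.88%. With quantile normalization the shares were 19.9% and 23% on day 3, and 49% and 34.3% between days. Calls of 1 or 2 markers in a short list are to be read beside these shares. The 6 fast fibre markers summed to 112583 to 123084 CPM with anti-miR106b and 115184 to 130424 in scrambled muscle on day 7, and to 37523 to 41087 CPM with anti-miR106b and 58837 to 72238 in scrambled muscle on day 3. All 6 were lower on day 3 with the inhibitor (median -0.72) and higher on day 7 than on day 3 (1.23); with quantile normalization 2 were lower on day 3, and 2 were higher and 1 lower between days. The 7 macrophage markers summed to 158 to 215 CPM with anti-miR106b and 143 to 211 in scrambled muscle on day 7, and to 1344 to 1515 CPM with anti-miR106b and 938 to 964 in scrambled muscle on day 3, where 4 were called higher (7 with scaling to total reads). The 5 markers of regenerating fibres summed to 194 to 342 and 171 to 359 CPM in the same day 7 groups, and to 2638 to 2919 and 1504 to 1948 CPM in those of day 3, where 3 were called higher. Fibro-adipogenic markers (1 of 3 called higher, with a median of -0.14), endothelial markers (1 of 3), erythroid markers (1 of 3 tested) and T cell markers (1 of 2 tested) had a call on day 3. The 2 tested satellite cell markers had none. With scaling to total reads all 3 erythroid, 2 endothelial and 1 satellite cell marker were higher, and with quantile normalization both T cell markers were. Of 3 germ cell markers, which bear on testis-type histone genes, 2 were below 1 CPM in every library and Sycp3 was lower on day 3 (-0.77, adjusted p 0.0302 in limma), a call lost with scaling to total reads (-0.58) and with quantile normalization (-0.50). No marker was called on day 7, while 1 endothelial marker was lower with scaling to total reads and 2 with quantile normalization. Under these 2 settings 0.156% and 0.0782% of all genes were called lower on day 7.

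Outside the family, the genes whose log2 CPM over the 12 libraries was most like that of Hist1h1c were Tpbgl (Pearson r = 0.990), Vkorc1l1 (0.987), Dnajc12 (0.985), Coa5 (0.985) and Rif1 (0.985), of 14051 genes compared. These are descriptions with no test, and the libraries share their 4 groups. Tpbgl averaged 7.22 log2 CPM with anti-miR106b and 7.01 in scrambled muscle on day 7, and 5.63 with anti-miR106b and 6.42 in scrambled muscle on day 3, the same order as Hist1h1c. Within the family, r with Hist1h1c was highest for Hist1h4h (0.958) and Hist1h2be (0.956) and lowest for Hist3h2a (0.516), over the same 12 libraries.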

How the data were processed

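RNA sequencing of 12 muscle libraries (4 groups of 3 animals) gave 1 table, in which the deposited values are log2 CPM per gene symbol. Per the submitters' processing notes, the authors used STAR and featureCounts on the build mm10, with limma 3.34.9, edgeR 3.20.9, Trim Galore 0.4.3.1 and FastQC 0.72; order, settings, annotation and use of strand are not given in the sources used here. Equal steps between the values give back the reads of each gene (whole within 0.01 for low counts), the library totals and the authors' library factors (group means 0.828 and 0.845 for anti-miR106b and scrambled on day 7, 1.28 and 1.12 on day 3), and an added prior of 0.25 reads on average. The labels give day 3 or 7 for each library, although the description of the study mentions a different later day once. Whether any animals gave muscles to several groups is not given, so p-values measure the spread between these samples.

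The log2 CPM were fitted with limma 3.58.1 in R 4.3.3 (1 mean per group, 8 residual and 5.59 prior degrees of freedom) for genes at 1 CPM or more in at least 3 libraries. Tests were two-sided, with Benjamini-Hochberg adjustment over all 14063 genes. An exact permutation test of 3 against 3 cannot go below 0.1 and was not used. The fit was tested on simulated data. Annotation came from GENCODE M21 (GRCm38) and promoters from RefSeq. Same-numbered libraries of a day had residual correlations of -0.04 to 0.14 and were not paired in the fit. Whether the replicate numbers pair the samples is not given in the sources used here.

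Members and gene lists were chosen with earlier results of these data known, so counts over them are descriptions. The list of small RNA genes without a poly(A) tail, and the sums without Hist1h1c and without scrambled day 3 library 3, were chosen after values were seen. Named genes were the 15 members with the highest mean, called members (at most 6 a direction and comparison), up to 4 genes per list by p, with Slbp added for its role after its values were seen, and the 5 genes most like Hist1h1c. Counting error only is covered by read numbers, since reads carry no molecular identifiers.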

Additional observations from a re-analysis of the deposited data

Results flagged for a closer look

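Hist1h1c drew attention because its inhibitor effect had opposite signs on the 2 days: all 3 anti-miR106b libraries lay above all 3 scrambled libraries on day 7, and all below them on day 3. The effect on day 7 minus that on day 3 was 1.04 on the log2 scale (SE 0.10). This difference was not tested, because the gene was chosen by it. It ranged between 0.98 and 1.09 when any library was left out, and was 0.82 with scaling to total reads and 0.97 with quantile normalization.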

How the results depend on the processing

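Counts of called histone genes kept within 1.5 times of those given, apart from these. Without a filter, 2 members were higher on day 3 and 7 lower between days. With scaling to total reads, 1 was higher on day 3, and 7 were higher and 1 lower between days. Leaving out any library gave 6 to 7 members lower on day 3 and 12 higher between days. Library weights, which gave scrambled day 3 library 3 a weight of 7.86, called 10 members lower on day 3, adding Hist2h2be (-0.23, adjusted p 0.0133 in limma), Hist1h3d (-0.61, 0.00361) and Hist1h2bh (-0.94, 0.00513). A fit with the replicate number as a block left 7 lower on day 3 and 12 higher between days. Whether these numbers pair the samples is not given in the sources used here, and 9 of 12 libraries correlated best with their own number.

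Signs turned for differences that were near 0 or under another scaling, and the cause was not tested. With quantile normalization, Hist1h2bh was 0.0050 on day 3, and on day 7 Hist2h2be was 0.011, Hist1h1d 0.060 and Hist1h1e 0.0016. With library weights, on day 7 Hist2h3c2 was -0.0020, Hist1h2bh -0.052 and Hist1h1e 0.048. With scaling to total reads, Hist1h2bh was -0.0029 on day 7, and between days Hist2h3c2 was -0.17 and Hist3h2a -0.30. With 1 library left out, day 7 differences ranged from -0.15 to 0.071 in Hist2h2be, -0.15 to 0.015 in Hist1h4i, -0.020 to 0.17 in Hist1h4h, -0.20 to 0.14 in Hist1h2bh, -0.15 to 0.18 in Hist1h1d and -0.15 to 0.11 in Hist1h1e. The 44 genes below 1 CPM rest on 92 to 244 reads per library in sum, which limits the precision of their values.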
